A study of Mus musculus with 25 samples.

Results

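Cluster 1 is the homeostatic microglia group in the deposited clustering of myeloid cells from mouse spinal cord. Its members were the cells given the number 1 in the cluster column of the deposited cell table, and they numbered 1887 of 30958 cells. The table gives clusters and cell types as bare numbers. All 1887 cells carried cell type code 1, which held 13289 cells, so cluster 1 made up 14.2% of that code and 6.10% of all cells. Every member came from the 2 control libraries: all 1429 cells of the first and all 458 cells of the second. None of the 29071 cells of the 23 injured libraries, 11402 of them code 1, was a member. A count of 0 allows a share of 0.0789% to 1.94% of a library's cells, depending on the library. Cluster 1 and the uninjured condition therefore covered the same cells, and the identity of the cluster and the absence of injury cannot be told apart in these data.

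The study profiled single cells by droplet 3′ RNA sequencing from a 5 mm stretch of cord at the lesion. Each of the 25 libraries came from 1 to 3 mice. The injured animals were sampled 1, 2, 3, 10 or 21 days after spinal cord injury, and the controls had a laminectomy, the removal of bone over the cord, without injury. All mice carried Cx3cr1CreERT2, in which a tamoxifen-inducible Cre is expressed from the Cx3cr1 locus of microglia and many other myeloid cells. In the Cx3cr1CreERT2 strain the YFP+ cells were sorted, and the titles call these libraries resident plus infiltrating. In the Cx3cr1CreERT2:R26tdTomato strain, which adds a red reporter switched on by Cre, RFP+/YFP+ cells were labelled resident and RFP-/YFP+ cells infiltrating. The zygosity of the alleles, the tamoxifen schedule and the mouse age are not given in the sources used here. The first control library held YFP+ cells of female mice and the second RFP+/YFP+ cells of male mice, in different sequencing pools. The 2 libraries thus differed in strain, sort, sex and pool at once.

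Microglia are the resident macrophages of the central nervous system. They arise from yolk sac progenitors and depend on the receptor Csf1r and on the transcription factor PU.1, encoded by Spi1. In undisturbed tissue they express a characteristic set of genes, kept up in part by TGF-beta signalling and the factor Sall1, and the set is known to fall when microglia respond to damage. The 6 markers given for cluster 1 belong to that set. P2ry12 is a purinergic receptor through which microglial processes sense ADP. Siglech is a sialic acid-binding lectin, and Tmem119 is a transmembrane protein used to tell microglia from blood-derived macrophages. Slc2a5 is a fructose transporter, and Adgrg1 is an adhesion G protein-coupled receptor. Csmd3 is a large transmembrane protein with CUB and sushi domains.

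On GRCm38 with GENCODE annotation, P2ry12 lies at chr3:59216272-59262871 on the minus strand and Siglech at chr7:55768178-55778925 on the plus strand. Slc2a5 lies at chr4:150119283-150144169 on the plus strand and Tmem119 at chr5:113793729-113800516 on the minus strand. Adgrg1 lies at chr8:94974751-95014217 on the plus strand and Csmd3 at chr15:47580637-48792063 on the minus strand. All 6 are protein-coding genes. The RefSeq promoter table (GRCm38.p6) held windows for 4 of the 6. The 250 bases before the RefSeq start are printed for P2ry12 and Siglech, the most abundant of the 4. RefSeq starts can differ from the GENCODE gene ends given above. The 4-letter ETS core GGAA, which is the centre of sites bound by PU.1 and its relatives, is in capitals where it occurs on either strand (as GGAA or TTCC). It was taken up after the longer core GAGGAA, chosen first, had no match in the marker windows.
P2ry12, chr3:59262986-59263235, minus strand: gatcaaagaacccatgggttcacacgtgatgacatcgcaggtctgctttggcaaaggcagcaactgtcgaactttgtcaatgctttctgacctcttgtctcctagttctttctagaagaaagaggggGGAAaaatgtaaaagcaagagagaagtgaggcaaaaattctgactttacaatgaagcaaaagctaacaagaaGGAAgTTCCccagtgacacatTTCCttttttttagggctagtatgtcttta
Siglech, chr7:55767934-55768183, plus strand: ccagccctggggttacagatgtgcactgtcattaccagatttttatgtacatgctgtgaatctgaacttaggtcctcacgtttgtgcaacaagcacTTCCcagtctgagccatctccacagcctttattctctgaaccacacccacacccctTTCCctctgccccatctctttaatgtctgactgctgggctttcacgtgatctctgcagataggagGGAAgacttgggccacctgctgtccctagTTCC
The P2ry12 and Siglech windows each held 4 such cores, the Slc2a5 window 0, and the 2 windows of Adgrg1 held 1 and 0. The core was present in 93.4% of all 32851 promoter windows, with a median of 3 a window, so its presence does not set these promoters apart. The PU.1 core GAGGAA, searched on both strands, was in 0 of the 5 marker windows and in 23.3% of all windows. The absence says only that these letters are not in these windows.

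Depth and quality did not single out the members as poor cells. Cluster 1 cells had a median of 3802 unique molecular identifiers (UMIs) and 1813 genes, with a median of 0.634% of counts from mitochondrial genes. The other 6 clusters holding code 1 cells ranged from 1880 to 13526 UMIs at the median. Total counts per library ran from 486649 to 33204422 UMIs. Nothing in the labels says that libraries of a group came from separate animals, so p-values below measure the spread between these libraries. Barcode sequences recurred between libraries in 254 of 30958 cells, 9 of them in cluster 1, and the 2 control libraries shared 0.

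The markers of cluster 1 were as its label has them. Counts were summed over the code 1 cells of each YFP+ or RFP+/YFP+ library and scaled to a common library total (CPM), which left 2 control and 15 injured libraries. Summed over the 6 markers, the level was 7014 CPM in the YFP+ control and 4401 CPM in the RFP+/YFP+ control, against 263 to 1283 CPM in injured microglia. Of the marker lists of other cells, some were lower in both controls than in injured microglia and some higher. The 8 monocyte markers summed to 8.93 and 23.2 CPM, against 155 to 663 CPM in injured microglia. The 8 markers of border-associated macrophages summed to 2.68 and 7.55 CPM, against 37.1 to 340 CPM. Of 8 lymphocyte markers 7 had no count in either control, and the other, Ighm, made up the list's 254 and 186 CPM, above the injured range of 19.0 to 82.4 CPM. Of 7 neutrophil markers 3 had no count (Retnlg, Ly6g and Mmp8), and only Csf3r passed 20 CPM. The list summed to 219 and 199 CPM, above the injured range of 28.1 to 151 CPM. Astrocyte markers, of which only Slc1a3 passed 20 CPM, summed to 133 and 156 CPM, above 10.3 to 96.7 CPM. Oligodendrocyte markers, which include Mbp, summed to 222 and 192 CPM and lay within the injured range of 83.4 to 407 CPM. The part of these counts in the results was not tested.

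P2ry12 was 3590 CPM in the YFP+ control and 1420 CPM in the RFP+/YFP+ control. In injured microglia it was 122, 98.0 and 76.1 CPM at day 1, and 253, 145 and 207 CPM at day 2. At day 3 it was 165 and 193 CPM in the RFP+/YFP+ libraries and 643, 714 and 329 CPM in the YFP+ libraries. Both controls stood above all 15 injured libraries, and within the injury the day 1 libraries were lowest. At day 10 it was 271 CPM in the RFP+/YFP+ library and 468 and 505 CPM in the YFP+ libraries, and at day 21 it was 250 CPM. The lower control exceeded the highest injured library 1.99-fold. The 2 controls also differed from each other, the YFP+ control being the higher by a factor of 2.53 (95% counting interval 2.43 to 2.63), so the size of the gap to injury depends on which control is used.

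Siglech was closer between the controls, at 1183 and 956 CPM. It was 49.2, 27.4 and 81.2 CPM at day 1 and 163, 54.1 and 96.2 CPM at day 2. At day 3 it lay between 84.5 and 157 CPM. At day 10 it reached 214, 245 and 283 CPM, and the day 21 library had 139 CPM. The groups did not overlap, and the lower control stood 3.38-fold above the highest injured library. The remaining markers were likewise higher in both controls than in all injured libraries, though their course after injury was not always that of Siglech. Tmem119 was 1544 and 1519 CPM in the controls and 91.4 to 500 CPM in the injured libraries. Slc2a5 was 226 and 203 CPM against 1.71 to 37.1 CPM. Adgrg1 was 263 and 186 CPM against 6.75 to 51.1 CPM. Csmd3 was 208 and 116 CPM against 0 to 25.5 CPM, and 2 of the day 3 libraries had no count. Because the clustering used these cells and genes, the levels are a description and carry no test.

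**Figure D1:**
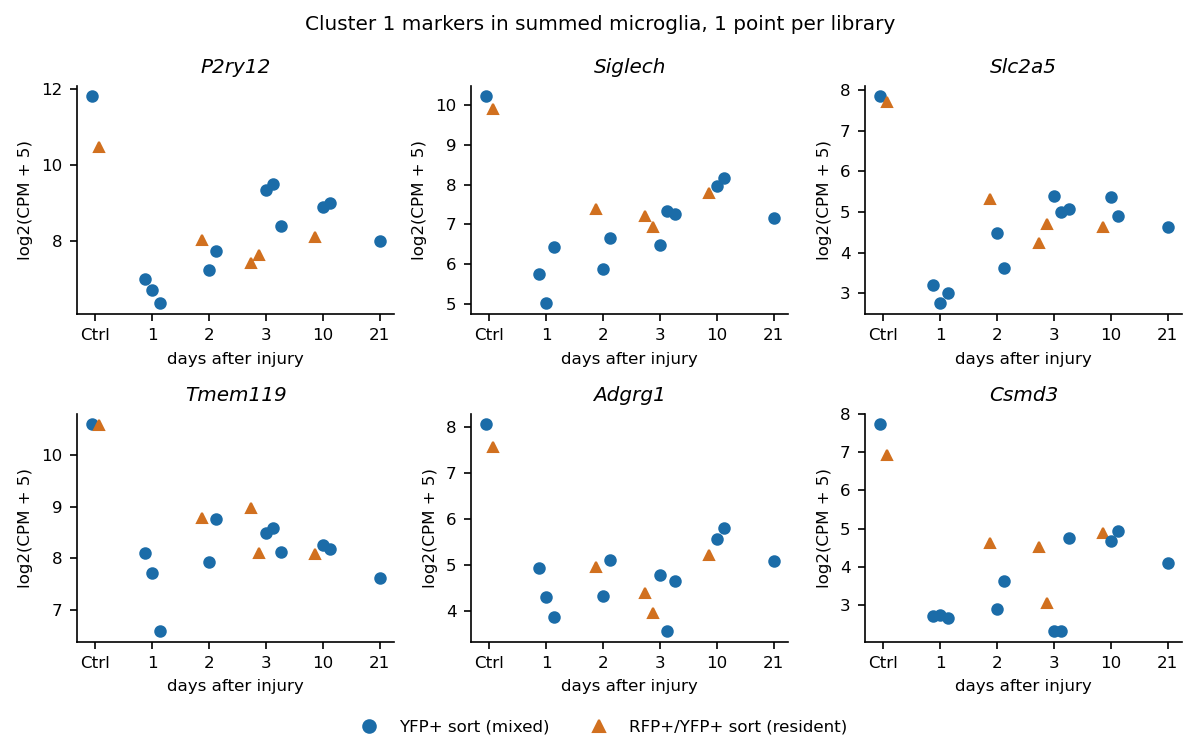
Level of each of the 6 markers as log2(CPM + 5) on the y axis, by days after injury on the x axis, in summed code 1 microglia; each point is 1 library, circles YFP+ sorts and triangles RFP+/YFP+ sorts. The 2 control points stand above all 15 injured points in every panel, and the day 1 points are lowest for P2ry12 and Slc2a5.

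Each control can be set beside injured libraries of its own sort and pool. For P2ry12 the YFP+ control stood 7.38-fold above the mean of the 2 day 10 YFP+ libraries of its pool, and the RFP+/YFP+ control 5.24-fold above the day 10 RFP+/YFP+ library of its own. For Tmem119 these ratios were 5.25 and 5.69, and for Siglech 4.48 and 4.46. All 6 markers were higher in each control than in every injured library of the same sort and pool (2 libraries each), under CPM and under both other scalings tried. Under CPM the same held for 68.1% of all 5345 genes kept in the YFP+ comparison and for 55.2% in the RFP+/YFP+ comparison. With TMM these shares were 36.1% and 30.5%, and with median-of-ratios factors 40.2% and 36.3%. Sex differed between the control and the day 10 libraries in all of these ratios, and the number of mice behind each library is not given one by one.

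Among all genes, the 25 with the highest ratio of cluster 1 to the other code 1 cells included 5 of the 6 markers, and Tmem119 was the exception. Il7r, the alpha chain of the interleukin-7 receptor, led with 123 CPM in cluster 1 and 5.16 CPM in the others. P2ry12 followed, at 3050 against 262 CPM. Selplg, the ligand of P-selectin, had the highest level of the 25, at 3755 against 532 CPM. Other receptors and enzymes of the cell surface among them were Il6ra, a receptor chain for interleukin-6, at 396 against 57.6 CPM, and Entpd1, which breaks down extracellular ATP, at 492 against 73.5 CPM. Regulators of transcription were also present: Zfhx3 was at 668 against 95.1 CPM, Nrip1 at 434 against 66.1 CPM and Sox4 at 302 against 40.0 CPM. The 25th gene, Srgap2, had a ratio of 6.12 on the CPM + 5 scale and the next gene, Numb, 6.11, so the list has no natural end there.

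Selplg shows how far the leading genes stood apart by library. It was 3734 CPM in the YFP+ control and 3818 CPM in the RFP+/YFP+ control. The injured libraries ranged from 206 to 792 CPM, with the highest at day 2. The controls did not overlap with them and the interval of their own ratio (0.995 to 1.05) included 1. Il7r was 135 and 88.5 CPM, against 1.69 to 15.7 CPM.

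The 15 genes lowest in cluster 1 were led by Spp1, which encodes osteopontin, a secreted matrix protein. Spp1 was 9.83 and 18.9 CPM in the controls, against 6690 to 38319 CPM in the injured libraries. The next were the galectins Lgals3 (8.45 CPM in cluster 1 against 571 CPM) and Lgals1 (4.83 against 375 CPM). Fn1, which encodes fibronectin, was at 3.89 against 336 CPM, and the apolipoprotein gene Apoc1 at 2.42 against 277 CPM. The scavenger receptor Msr1 was at 3.09 against 286 CPM, and Fabp5, a fatty acid-binding protein, at 11.1 against 465 CPM. The chemokines Ccl3 and Ccl4 were at 24.2 and 24.3 CPM, against 510 and 958 CPM. Spp1 and Apoe together made up 0.158% and 0.164% of counts in the controls and 1.76% to 7.72% in injured microglia.

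The choice of scaling also mattered. Of the 5345 genes with a mean of at least 20 CPM over the 17 libraries, both controls lay above all 15 injured libraries for 1584 (29.6%) and below them for 433 (8.1%). With trimmed-mean (TMM) factors the counts were 699 above (13.1%) and 1170 below (21.9%), and with median-of-ratios factors 822 above (15.4%) and 1023 below (19.1%). The median difference of all genes between controls and injured libraries was 0.30 on the log2(CPM + 5) scale and -0.21 with TMM. Whether more genes were higher or lower in cluster 1 therefore depends on the scaling, and gene lists are given under both.

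As a set, the 25 genes of the homeostatic surface and signalling list stood far above that background. The list holds every marker given for cluster 1, and also Selplg and Entpd1 from the leading genes above. The clustering used these cells and genes, so the separation of the list is a description and carries no test. The part of the given markers in the values below was not tested. Under CPM 22 of the 25 were higher in both controls than in all 15 injured libraries, and 16 under TMM, with 0 lower under either. Their median difference was 2.30 in log2 under CPM and 1.74 under TMM. Purinergic signalling was represented by P2ry12, P2ry13 and Entpd1. P2ry13 was 465 and 305 CPM in the controls, against 50.1 to 123 CPM. Mertk, a receptor for the uptake of dying cells, was 284 and 312 CPM, against 20.3 to 141 CPM. Gpr34, a lysophospholipid receptor, was 2428 and 1564 CPM, against 93.5 to 887 CPM. The secreted protease inhibitor Cst3 was the most abundant member, at 63181 and 51739 CPM, against 4712 to 25485 CPM.

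The members that overlapped under CPM were Trem2, Fcrls and Cx3cr1. Trem2, a receptor for lipids and cell debris, was 2729 and 2003 CPM in the controls, below the day 21 library at 3094 CPM and above all 3 day 1 libraries. Fcrls, an Fc receptor-like gene typical of microglia, was 1274 and 1994 CPM, against 589 to 2281 CPM. Cx3cr1 is described with the sorts. Under TMM 6 more members overlapped, among them Olfml3, Sparc, Ltc4s, Bin1 and Tgfbr2.

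TGF-beta signalling and the transcription factors of the lineage were examined as a second list. Of its 18 genes kept, 13 (72.2%) were higher in both controls than in all injured libraries under CPM and 11 (61.1%) under TMM. Of all genes 29.6% were higher under CPM and 13.1% under TMM. Hif1a was lower in both controls under TMM. Sall1, Tgfbr1 and Tgfbr2 are also in the homeostatic list, and Jun is also in the immediate early list. Sall1, which marks microglia among macrophages, was 218 and 158 CPM in the controls and 13.5 to 71.0 CPM after injury. Tgfbr1, the type I TGF-beta receptor, was 1246 and 771 CPM, against 36.2 to 440 CPM. Smad7, a target and inhibitor of the pathway, was 231 and 278 CPM, against 10.3 to 113 CPM. The transcription factor Maf was 691 and 477 CPM, against 37.6 to 256 CPM. Csf1r, the receptor microglia need to survive, was 3243 and 2996 CPM, against 537 to 1573 CPM. Spi1 overlapped with injury, at 564 and 475 CPM against 345 to 487 CPM, so the gene for PU.1 did not separate the groups while many other regulators did. Cebpa, Cebpb, Bhlhe41 and Hif1a overlapped under CPM as well, and Irf8 and Tgfbr2 under TMM.

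Other lists ran the opposite way. Of 23 genes kept from the lipid and phagocyte response list, 0 were higher and 11 lower in both controls, under CPM and TMM alike. Apoe, the main lipid carrier of the brain, was 1575 and 1625 CPM in the controls, above all 3 day 1 libraries (909 to 1341 CPM) and far below those of days 10 and 21 (50945 to 68188 CPM), so it overlapped. Lpl, a lipase, was 54.7 and 77.7 CPM, against 223 to 1141 CPM. Igf1, a growth factor, had 2.14 CPM in the YFP+ control and no count in the other, against 4.64 to 346 CPM. Of 9 metallothionein and heme response genes kept, 7 were lower under CPM and 8 under TMM. Hmox1, the enzyme that degrades heme, was 43.4 and 56.6 CPM, against 119 to 1934 CPM. Of 33 ribosomal protein genes 19 were lower under CPM and 27 under TMM. These counts stand beside 8.1% of all genes lower under CPM and 21.9% under TMM. Of 20 cell cycle genes, 0 were higher in both controls, 0 were lower under CPM and 7 (35%) under TMM. Their median difference was -2.02 in log2 under CPM and -2.22 under TMM. Under CPM 18 of the 20 were lower in the YFP+ control than in every injured library of its sort and pool (all genes 24.4%). For the RFP+/YFP+ control 16 were lower (all genes 26.2%), and 0 were higher for either.

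Part of the immediate early list was higher in cluster 1. Of 12 genes kept from this list, which also collects genes known to respond to tissue dissociation, 8 (66.7%) were higher in both controls under CPM. Under TMM 5 (41.7%) were higher, and Atf3 was lower under both. Of all genes 29.6% were higher under CPM and 13.1% under TMM, and 8.1% and 21.9% were lower. Another 8 of the list's 20 genes, Fos and Dusp1 among them, were below 20 CPM in the mean and were not compared. Jun was 820 and 543 CPM in the controls, against 30.9 to 211 CPM in the injured libraries. Btg2 was 389 and 337 CPM, against 7.40 to 105 CPM. The part of cell handling in these levels was not tested. Of 14 interferon-stimulated genes kept, 0 had both controls above or both below all injured libraries under the 3 scalings. The controls themselves differed on this list. Its 15 genes summed to 700 CPM in the YFP+ control, below the injured range of 712 to 6466 CPM. In the RFP+/YFP+ control they summed to 2614 CPM, within that range.

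**Figure D2:**
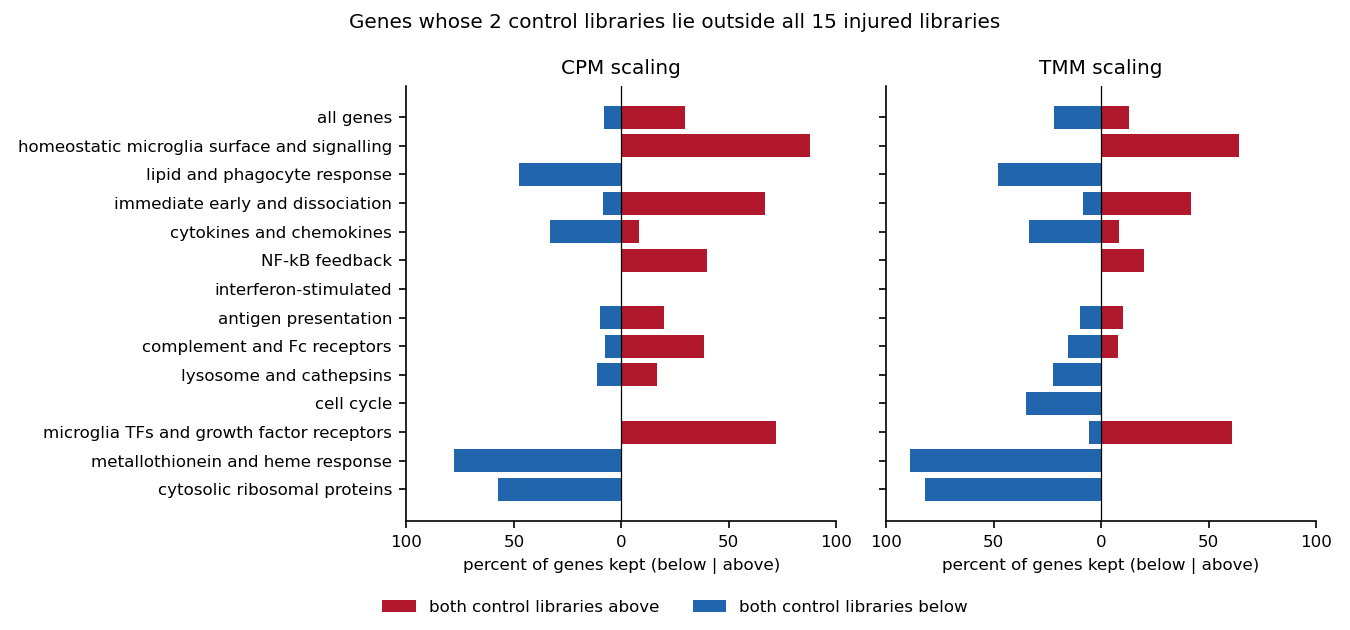
Percent of each list's kept genes (x axis) whose 2 control libraries both lie above (red, right) or both below (blue, left) all 15 injured libraries, with CPM on the left and TMM on the right. The homeostatic list, which holds the markers given for cluster 1, reached 88% above under CPM and 64% under TMM. The bar of all genes turns from mostly above to mostly below.

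To compare single cells, each code 1 cell was thinned at random to 1500 UMIs, which left out 5 of the 1887 members. The injured libraries lost from 2.02% to 45.1% of their cells in this step, the largest share in a day 3 library, so their values rest on the deeper cells. Thinned cells of cluster 1 held a median of 918 genes, against 666 to 806 in clusters 2 to 6 and 920 in cluster 7, which had 67 cells. By library the medians were 915 and 927 genes in the controls and 655 to 833 in the injured libraries. In cells of equal depth, cluster 1 thus spread its counts over more genes than most injured microglia. The 50 most abundant genes took 25.5% and 24.6% of counts in the controls and 25.9% to 37.0% in injured microglia.

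The markers differed in how many members showed them. A thinned cell carried a mean of 10.8 UMIs of the 6 in the YFP+ control and 6.89 in the RFP+/YFP+ control, and the 10th and 90th percentiles were 5 and 17 in the first and 2 and 12 in the second. Among injured libraries the medians were 0 or 1. P2ry12 was seen in 94.2% of members, Tmem119 in 85.9% and Siglech in 78.4%. The less abundant Adgrg1, Slc2a5 and Csmd3 were seen in 30.3%, 26.7% and 23.3%. Both control libraries held code 1 cells alone, so the share that free RNA gives in other cells could not be measured in them. In the injured libraries, where marker RNA was scarcer, a P2ry12 UMI was seen in 1.60% of code 2 cells and 3.55% of code 4 cells. A Tmem119 UMI was seen in 3.29% and 0.209%. Neutrophil markers led in code 4 (S100a8 at 46832 CPM), and the median depths before thinning were 9237 and 2243 UMIs, against 3806 in cluster 1.

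With a threshold of 5 marker UMIs, chosen after the values were seen, 93.4% of cells in the YFP+ control and 71.9% in the RFP+/YFP+ control reached it. The injured libraries ranged from 0% to 12.3%. The threshold cuts a continuous range: 204 and 148 control cells had 4 to 6 such UMIs. By cluster, 21.5% of cluster 4 cells reached it, 8.96% of cluster 7 and under 5% in each of clusters 2, 3, 5 and 6. Cluster 4 was also the nearest to cluster 1 in its summed profile, with a correlation of 0.90 across 5345 genes, against 0.61 to 0.76 for the others; genes are not independent replicates, and these values describe the profiles.

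Injured cells that reached the threshold were compared with cluster 1 by their UMIs of the lipid and phagocyte response list. At day 10 there were 245 of them, 81.6% in cluster 4, with a median of 68 UMIs of the list. The other day 10 cells had a median of 143.5, and control cells at the threshold had 19. Medians within each library were added after the data were seen. The direction held in each of the 3 day 10 libraries, with 44, 69 and 69 in cells at the threshold and 158, 135 and 150 in the rest. At day 21 the 51 such cells had a median of 73, against 163 in the rest, and that was a single library. At day 2, 66 of the 70 such cells came from the RFP+/YFP+ library, where they had a median of 35.5, against 54. At day 3 the 5 libraries held 95 such cells and differed: cells at the threshold had the lower median in 2 libraries (98 against 99, and 69 against 99) and the higher in 3 (141 against 87, 69 against 63, and 137 against 132.5), the first of these on 4 cells. At day 1, 6 cells reached the threshold and 2985 did not, and the median of the 6 was 17.5, near the 19 of control cells. Because every thinned cell has the same total, UMIs of 1 list leave fewer for another, and the part of this trade-off in the comparison was not tested.

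**Figure D3:**
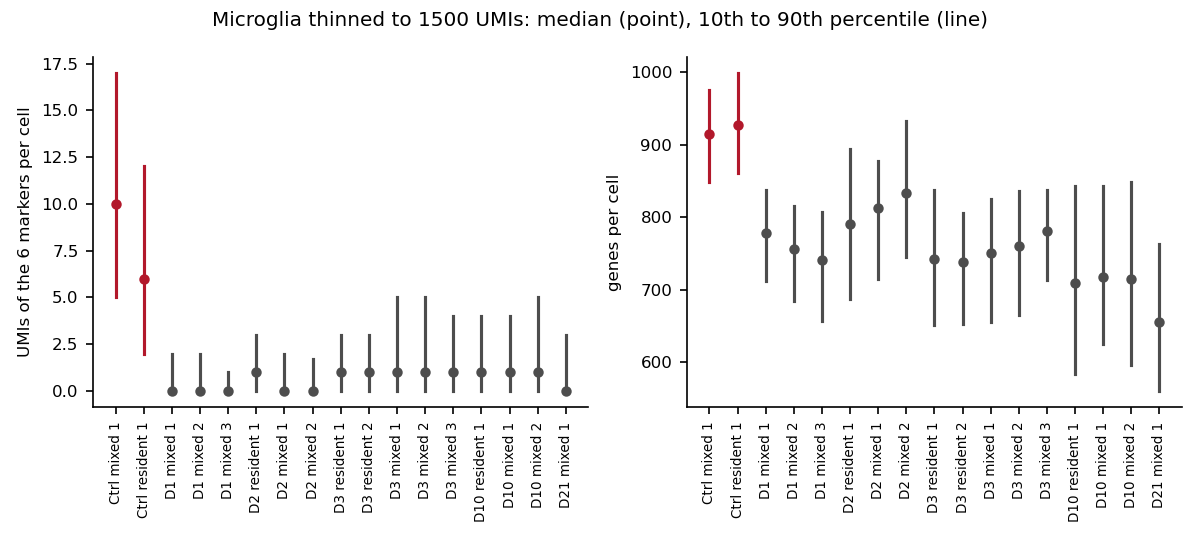
Code 1 microglia thinned to 1500 UMIs, by library on the x axis (mixed, YFP+; resident, RFP+/YFP+); the y axes give UMIs of the 6 markers per cell (left) and genes per cell (right), with points for medians and lines from the 10th to the 90th percentile. The 2 control libraries, in red, have medians of 10 and 6 marker UMIs, while injured medians are 0 or 1.

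Within cluster 1, the 2 libraries differed by less than 2-fold for most genes. Of 6399 genes with a mean of at least 20 CPM over the controls, 107 (1.67%) were at least 2-fold higher in the RFP+/YFP+ control on the CPM + 5 scale and 18 (0.281%) at least 2-fold lower. With 1 library a side there is no test, and the intervals below cover counting error only. All 13 interferon-stimulated genes kept were among the higher ones, with a median log2 difference of 2.09 against 0.03 for all genes. Isg15, a ubiquitin-like protein induced by interferon, was 173 CPM in the RFP+/YFP+ control and 27.9 CPM in the YFP+ control, a ratio of 6.19 (95% interval 5.10 to 7.55). Ifit3, which belongs to a family that binds viral RNA, was 146 against 17.0 CPM. Ifitm3, a membrane protein that restricts virus entry, was 327 against 54.1 CPM.

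The chemokines Ccl12 and Ccl2, which attract monocytes, differed in the same direction. Ccl12 was 1255 CPM in the RFP+/YFP+ control and 165 CPM in the YFP+ control, a ratio of 7.61 (95% interval 7.05 to 8.22). Ccl2 was 154 against 16.1 CPM. Cxcl13 had the largest difference of all genes, with 79 counts against 4, or 42.6 against 0.715 CPM. The cell cycle inhibitor Cdkn1a was 219 against 26.6 CPM. Among lower genes were P2ry12, the histone genes Hist1h4d (16.7 against 107 CPM) and Hist1h1e (55.0 against 151 CPM), and mt-Atp8 (6.47 against 63.6 CPM). Selplg, Tmem119 and Slc2a5 had intervals that included a ratio of 1. Strain, sort, sex and pool cannot be told apart in this pair.

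The interferon list varied between cells of the RFP+/YFP+ control. With a threshold of 5 UMIs, also chosen after the values were seen, 100 of its 456 thinned cells (21.9%) had that many UMIs of the list, against 50 of 1426 (3.51%) in the YFP+ control, and 60 and 48 cells had 4 to 6. The 90th percentiles were 9 and 2 UMIs and the medians 2 and 1. Among the 100 cells, 69.0% also had a UMI of Ccl2, Ccl7 or Ccl12, against 34.8% of the library's other cells. In the YFP+ control these shares were 36.0% and 13.6%, so cells under the threshold differed between the libraries as well. Median depth before thinning was 3981 and 3734 UMIs in those 2 groups of the RFP+/YFP+ control.

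The interferon list differed between these libraries after injury too, where the RFP+/YFP+ and YFP+ libraries also came from different strains and pools, which cannot be told apart from the sort. At day 2 the list summed to 3573 CPM in the RFP+/YFP+ library and to 1260 and 1525 CPM in the YFP+ libraries. At day 3 it was 6466 and 5512 CPM against 2067, 828.9 and 1834 CPM, and at day 10 it was 1919 against 1190 and 1087 CPM. With the controls at 2614 and 700 CPM, the RFP+/YFP+ libraries were the higher at all 4 times that had both sorts. The difference was not gene by gene the same, however. At day 10 Isg15 was 65.6 CPM in the RFP+/YFP+ library and 68.6 CPM in the YFP+ libraries. Of 125 genes past 2-fold between the controls, 83 had the same direction at day 10 and 8 were past 2-fold there as well. Across the 6399 genes the 2 differences had a correlation of 0.29, which describes these 5 libraries.

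Cx3cr1, the fractalkine receptor, was the member of the homeostatic list with the largest difference between the controls, at 1609 CPM in the RFP+/YFP+ control and 201 CPM in the YFP+ control. The same order held after injury. At day 10 it was 786 CPM in the RFP+/YFP+ library and 85.0 and 70.1 CPM in the YFP+ libraries, and at day 3 it was 643 and 340 CPM against 4.12, 16.9 and 78.6 CPM. Both strains carry Cre at this locus, so its level can depend on how many alleles were modified, which was not tested.

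**Figure D4:**
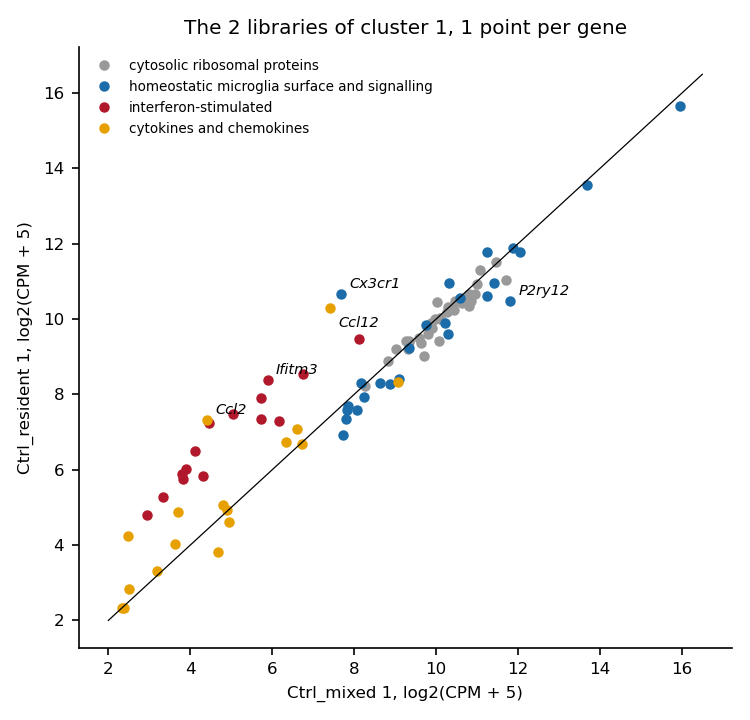
Genes of 4 lists in the YFP+ control (Ctrl_mixed 1, x axis) and the RFP+/YFP+ control (Ctrl_resident 1, y axis), both as log2(CPM + 5), with a line of equality. Interferon-stimulated genes, Ccl2, Ccl12 and Cx3cr1 lie above the line, P2ry12 lies below it, and ribosomal protein genes follow it.

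Since no injured cell belonged to cluster 1, how far its genes came back after injury was followed in all code 1 cells of the injured libraries. On the log2(CPM + 5) scale, the median of the 25 homeostatic genes was 3.05 below the controls at day 1, where that of all genes was 0.28 below. The list's median difference was -2.35 at day 2, -2.34 at day 3, -1.51 at day 10 and -2.09 at day 21, beside all-gene medians of -0.16, -0.32, -0.37 and -0.56. With TMM the 5 list medians were -2.38, -2.01, -1.78, -0.94 and -1.22, beside all-gene medians of 0.34, 0.14, 0.18, 0.15 and 0.22. The list's distance to cluster 1 was smallest at day 10 under both scalings. The day 10 libraries all came from the pools of the controls. Of the other injured libraries summed here, only the day 2 RFP+/YFP+ library did. Time and a pool shared with the controls therefore cannot be told apart in this distance. At day 10, 19 of the 25 genes were more than 1 below the controls under CPM and 12 under TMM, and Fcrls and Trem2 were above them under both.

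**Figure D5:**
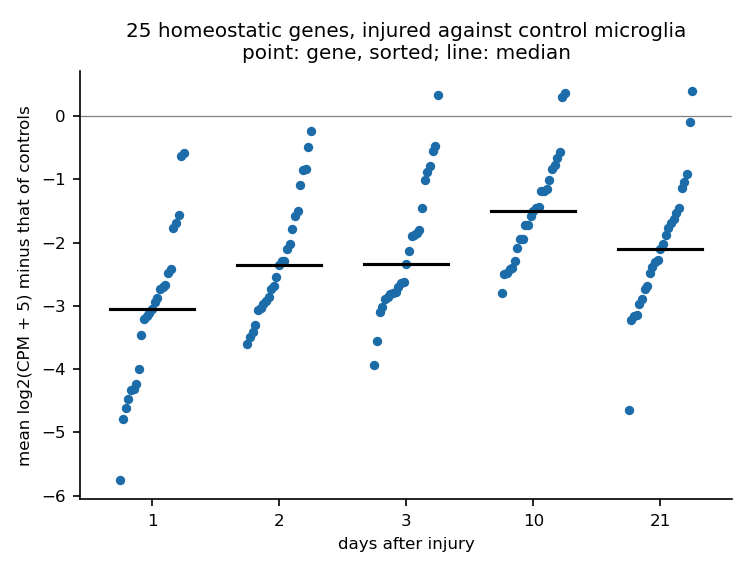
Difference in mean log2(CPM + 5) between injured and control code 1 libraries (y axis) at each day after injury (x axis) for the 25 homeostatic genes, sorted within a day; the black line is the median. Medians lie at -3.05 on day 1, -1.51 on day 10 and -2.09 on day 21.

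The rise within the injured libraries could be tested, since it uses no cluster 1 cell. Between day 1 and day 10 (3 libraries each), 17 of the 25 homeostatic genes rose and 0 fell (edgeR quasi-likelihood test over 15 injured libraries, with sex as a covariate, Benjamini-Hochberg adjusted p of at most 0.05). Of all 10555 genes tested 16.7% rose and 15.4% fell. Without the third day 1 YFP+ library 16 rose and 1 fell. The median log2 change was 1.59 for the list and 0.05 for all genes. P2ry12 rose by 2.22 in log2 (SE 0.412, edgeR adjusted p = 0.00116) and Siglech by 2.23 (SE 0.386, edgeR adjusted p = 0.000735). Slc2a5 rose by 3.24, Csmd3 by 3.86 and Adgrg1 by 1.34. All 3 day 10 libraries were above all 3 day 1 libraries for these 5 markers. These 5, members of the list of 25, were named because they passed, and the share of all genes separating in this way is not given here. Tmem119 had a log2 difference of 0.47 (SE 0.343, edgeR adjusted p = 0.302) and did not pass.

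Other values moved over the same libraries. The 9 macrophage markers summed to 569 to 730 CPM at day 1 and 2595 to 3843 CPM at day 10, and 16 of 24 lipid and phagocyte response genes rose and 2, Lgals1 and Spp1, fell, with a median log2 change of 1.86. The cells also lay in different clusters: cluster 5 held 50.9% to 83.0% of code 1 cells in the day 1 libraries, and clusters 3 and 4 held 44.3% to 51.9% and 25.1% to 39.2% in those of day 10. The part of these in the rise was not tested.

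Other members that rose included Tgfbr1 (2.84 in log2) and Tgfbr2 (2.11), the 2 chains of the TGF-beta receptor, and Sall1 (1.29). The phagocytic receptor Mertk rose by 1.92, Trem2 by 1.92 and Entpd1 by 2.86. Gpr34 rose by 1.59, Selplg by 1.49 and Sparc, a matricellular protein, by 1.79. Calls for Adgrg1 and Sall1 were lost without the second day 10 YFP+ library (edgeR adjusted p = 0.0692 and 0.0684). All day 1 libraries shared a pool that held no day 10 library, so time and pool cannot be told apart in this comparison. The pool did hold the day 21 YFP+ library. In it 21 of the 25 genes were above all 3 day 1 libraries, as were 29.0% of the 5345 genes kept, and P2ry12 was at 250 CPM. That library came from female mice and the day 1 libraries from male mice, so sex and time cannot be told apart there.

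Between day 2 and day 10, 7 of the 25 rose and 0 fell, where 2.23% of all genes rose and 4.1% fell. Siglech rose by 1.45 in log2 (SE 0.378, edgeR adjusted p = 0.0294), and of the 6 markers it alone passed. P2ry12 had a difference of 1.18 (SE 0.395, edgeR adjusted p = 0.0884). Trem2 rose by 1.34, Sparc by 1.75, Entpd1 by 1.46 and Tgfbr1 by 1.62. With pool as a term in the model, 0 of the 25 passed, and Siglech had a difference of 1.15 (edgeR adjusted p = 0.675). Leaving out the first day 2 YFP+ library left 1 of the 25. Over the same libraries 20 of 20 cell cycle genes fell, and 14 of 24 lipid and phagocyte response genes rose and 1 fell. The macrophage markers summed to 486 to 769 CPM at day 2, against the 2595 to 3843 CPM of day 10. Cluster 5 held 25.4% to 33.8% and cluster 6 held 30.4% to 47.9% of code 1 cells in the day 2 libraries, and 2.18% to 6.08% and 3.7% to 5.47% in those of day 10. The part of these in the difference was not tested.

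Between day 10 and day 21, which had 1 library, 0 of 10555 genes passed with edgeR, 180 had an unadjusted p under 0.05, and 1 passed with DESeq2. None of the 25 homeostatic genes had an unadjusted p under 0.05. A single day 21 library, in another pool, limits what this comparison could detect.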

How the data were processed

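Single cells were sequenced from 25 libraries, and whole-number UMI counts per gene and cell were analysed as the authors deposited them. Per the submitters' processing notes the tools included Cell Ranger 3.1.0 and the builds GRCm38 and mm10. Cluster numbers, cell type codes, total counts and the mitochondrial percent per cell are values of the authors' deposited cell table, joined by barcode. The cell sums equalled the deposited totals for 30958 of 30958 cells. Filters and doublet treatment upstream are not given in the sources used here, and no cell was removed, except in thinning.

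Counts were summed over code 1 cells of each YFP+ or RFP+/YFP+ library with at least 20 such cells, and tested with edgeR 4.0.16 (TMM, quasi-likelihood, time and sex) over the injured libraries. DESeq2 1.42.0 was an alternative, and the script was tested on simulated data. There it recovered the sizes of the changes but missed most of those of 2-fold, and its pass rule was loosened after a first failure for low power, so a gene that did not pass may still have changed. Contrasts planned within cluster 1 could not be fitted, since no injured cell belonged to it, and those reported were chosen after that was seen. Replicate numbers were not shown to pair libraries. Intervals are exact binomial (95%) and cover counting error only; a count of 0 is limited by 3 counts. Leading genes were the 25 highest and 15 lowest ratios of CPM + 5 with at least 50 CPM in the higher group. The members, gene lists and rules were chosen with earlier results of these data known. The 2 series-wide tables were not used here. The library titled infiltrating at day 3 but sorted as RFP+/YFP+ entered no library sum and no test. Its 3800 cells, 8 of them code 1, were counted among the injured cells and in the values by cluster and by code. Some single genes are not reported here.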

Additional observations from a re-analysis of the deposited data

How the results depend on the processing

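The share of cluster 1 was 100% in both control libraries and 0% in the injured ones with code 1 cells as denominator and with YFP+ libraries alone. The same held with each of the 17 libraries that had a code 1 sum left out in turn. The planned contrasts of cluster 1 between times were not run under any setting, for lack of injured members. All alternatives of the added contrasts were chosen after seeing the data. For day 10 against day 2, calls numbered 668, and 1032 with DESeq2, 427 with at least 50 cells a library, 3 with a pool term and 11 in YFP+ libraries alone; the cause was not tested. The homeostatic list had 7 genes called higher, and 11 with no expression filter, 4 with at least 50 cells, 0 with a pool term and 0 in YFP+ libraries alone. Leaving out 1 library gave 151 to 812 calls and 1 to 9 list genes. The calls were 151, 427, 169, 377 and 182, and the list genes 1, 4, 3, 4 and 3, without the first and second day 2 YFP+ libraries, the day 10 RFP+/YFP+ library and the first and second day 10 YFP+ libraries. For day 10 against day 1, 3388 calls became 1711 to 3692 and 17 list genes 13 to 21, with 1 list gene lower without the third day 1 YFP+ library. The calls were 2133 without the second day 1 YFP+ library, and 2134 and 1711 without the first and second day 10 YFP+ libraries. For day 21 against day 10, DESeq2 gave 1 call and no expression filter 2, and leaving out 1 library 0 to 0. A replicate block gave 3340, 698 and 0 calls and 17, 7 and 0 list genes for the 3 contrasts, and correlations between same-numbered libraries ran from -0.19 to 0.11, so the numbers were not taken as pairs. A pool term could not be fitted for contrasts with day 1. Of the single genes recomputed, 328 values for day 10 against day 1 kept direction and side of the threshold and 2 lost the call; for day 10 against day 2, 91 kept both, 20 lost the call and 4 gained it. No recomputed value changed sign. With 2 control libraries, the spread of cluster 1 itself is not known.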
